A study of Mus musculus with 17 samples.

Results

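The adrenergic receptor genes described here were the 8 members Adra1a, Adra1b, Adra1d, Adra2a, Adra2b, Adra2c, Adrb1 and Adrb3, taken by their gene symbols from a count table of 56953 genes. They form 3 alpha1 genes, 3 alpha2 genes and 2 beta genes, and all 8 had enough counts to be tested. RNA came from the prefrontal cortex of B6C3F1/J mice at 8 months of age, although a figure legend of the study gives a later age. The samples were 5 WT, 6 PS19 and 6 CgA-KO/PS19 libraries, where the labels write hTau for PS19 and CgA-KO/hTau for CgA-KO/PS19. PS19 mice are heterozygous for a mutant human Tau transgene that the Prnp promoter drives. CgA-KO/PS19 mice carry the same transgene and lack Chga, the gene of chromogranin A (CgA), through a congenital deletion in the whole body, so that development without CgA is part of that genotype. The deletion line started on a mixed 129/SvJ and C57BL/6 background and was later backcrossed. Mice that lack Chga without the transgene were not analysed here. The comparisons ask how the receptor family differed between PS19 and WT, and whether it differed between CgA-KO/PS19 and PS19.

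Adrenergic receptors are G protein-coupled receptors for noradrenaline and adrenaline. The alpha1 receptors act through Gq, which activates phospholipase C and releases calcium inside the cell. The alpha2 receptors act through Gi and Go and lower cyclic AMP, and on noradrenergic axons they restrain further release, while the beta receptors act through Gs and raise cyclic AMP. In the prefrontal cortex alpha2A receptors are known for their part in working memory, and alpha1 receptors for effects of strong noradrenaline release under stress.

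The genes lie on 6 chromosomes of GRCm38 (mm10), given here from GENCODE M21. Adra1a is on chromosome 14 from 66635251 to 66771168, Adra1b on chromosome 11 from 43774606 to 43901210, Adra1d on chromosome 2 from 131545850 to 131562283 and Adra2a on chromosome 19 from 54044151 to 54048982. Adra2b is on chromosome 2 from 127363208 to 127367221, Adra2c on chromosome 5 from 35278319 to 35281763, Adrb1 on chromosome 19 from 56722199 to 56733113 and Adrb3 on chromosome 8 from 27225776 to 27250616. The 3 alpha2 genes have no intron in this annotation, and the alpha1 genes have 2 to 5 exon blocks. Adra1d overlaps the antisense gene Gm14285 and Adrb3 the antisense gene Gm45470, and since the sources do not say whether reads were counted by strand, those counts may hold reads of both.

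Promoter sequences are shown for Adra1b, Adra2a and Adra2b because 3 of the 4 genes called between WT and PS19 have a start site in the RefSeq table used (GRCm38.p6), while Adra1d has none there. Each is the 250 bases before a start site, 5′ to 3′ on the gene's strand. Capitals mark the GC box GGGCGG, the motif TGACG of cyclic AMP response elements and the TATA box TATAAA, searched on both strands.
Adra1b, upstream start, chr11:43901238-43901487, minus strand: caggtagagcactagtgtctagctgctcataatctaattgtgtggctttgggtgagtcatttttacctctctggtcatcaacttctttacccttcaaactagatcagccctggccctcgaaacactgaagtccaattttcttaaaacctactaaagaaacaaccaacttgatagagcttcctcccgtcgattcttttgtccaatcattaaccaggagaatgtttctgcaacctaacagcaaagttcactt
Adra1b, downstream start, chr11:43836490-43836739, minus strand: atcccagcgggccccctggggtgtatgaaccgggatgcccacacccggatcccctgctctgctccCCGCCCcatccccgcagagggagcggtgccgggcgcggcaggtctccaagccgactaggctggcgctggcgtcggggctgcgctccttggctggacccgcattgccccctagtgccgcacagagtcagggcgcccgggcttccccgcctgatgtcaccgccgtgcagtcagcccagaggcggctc
Adra2a, chr19:54045009-54045258, plus strand: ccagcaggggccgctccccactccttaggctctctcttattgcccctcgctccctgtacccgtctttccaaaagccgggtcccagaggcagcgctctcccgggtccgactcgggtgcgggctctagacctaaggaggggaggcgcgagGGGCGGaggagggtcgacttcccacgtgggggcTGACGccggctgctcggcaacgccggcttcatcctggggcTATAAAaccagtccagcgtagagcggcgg
Adra2b, chr2:127362929-127363178, plus strand: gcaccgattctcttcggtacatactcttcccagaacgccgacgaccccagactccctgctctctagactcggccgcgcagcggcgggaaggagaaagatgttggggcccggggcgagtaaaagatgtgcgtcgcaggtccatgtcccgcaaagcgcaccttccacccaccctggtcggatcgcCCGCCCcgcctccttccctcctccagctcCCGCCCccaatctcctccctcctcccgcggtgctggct
The GC content of the windows was 41.6% and 72.8% for the upstream and downstream starts of Adra1b, 67.6% for Adra2a and 66.0% for Adra2b, where the median of all 32851 promoter windows was 52.4%. The Adra2a window held 1 match of each motif and the Adra2b window 2 GC boxes. Of all windows, 32.7% held the GC box, 17.8% TGACG and 12.4% the TATA box. A match is a description of the letters and not a binding site.

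The total count was 8838334 to 227651681 per library, with the lowest total in WT replicate 4. Low counts peaked at 3 and 6, which is read here as about 3 counts for each sequenced fragment. Levels are CPM, the counts scaled to a common library size by edgeR's TMM (trimmed mean of M-values). Chga, the check of the genotype, was at 0 counts in all 6 CgA-KO/PS19 libraries and at 152 to 180 CPM in WT and 162 to 177 CPM in PS19. Prnp, whose promoter drives the transgene, was 833 ± 71.0 CPM in WT (SD, n = 5), 2119 ± 174 in PS19 (SD, n = 6) and 1561 ± 321 in CgA-KO/PS19 (SD, n = 6). By the quasi-likelihood test of edgeR, Prnp was lower than in PS19 in WT (log2 fold change -1.35, adjusted p = 2.8e-05) and in CgA-KO/PS19 (-0.44, adjusted p = 0.0304). The CgA-KO/PS19 and PS19 libraries overlapped in Prnp. Markers of the striatum, which is not cortex, differed between the genotypes. The summed level of 16 striatum markers was 1308 to 4428 CPM in WT, 374 to 528 CPM in PS19 and 325 to 2651 CPM in CgA-KO/PS19, and 1 of the 16, Isl1, was at 0 in every PS19 library. Within CgA-KO/PS19 the sum was 2602, 590 and 2651 CPM in replicates 1 to 3 and 379, 363 and 325 CPM in replicates 4 to 6. Markers of upper-layer cortical neurons were present in every library. They summed to 600 to 1010 CPM in WT, 1057 to 1246 CPM in PS19 and 611 to 1099 CPM in CgA-KO/PS19. Against PS19, edgeR called 1 of these 7 markers higher and 2 lower in each of WT and CgA-KO/PS19. The 10 markers of deep-layer cortical neurons summed to 451 to 564 CPM in WT, 313 to 517 CPM in PS19 and 377 to 480 CPM in CgA-KO/PS19. Of these, 3 were higher in WT and 0 were called in CgA-KO/PS19, where 5 were higher at an unadjusted p under 0.05. Marker lists of other regions and cells moved with the genotypes too. The 11 markers of hypothalamus and basal forebrain summed to 12.9 to 46.8 CPM in WT, 1.58 to 3.02 CPM in PS19 and 1.33 to 17.7 CPM in CgA-KO/PS19, with 1 of them at 0 throughout PS19, and against PS19, 6 of the 7 tested were higher in WT and 1 in CgA-KO/PS19. The 9 markers of cortical interneurons summed to 1220 to 1584 CPM in WT, 1240 to 1429 CPM in PS19 and 742 to 1149 CPM in CgA-KO/PS19, which lay below every PS19 library, and 3 of 9 were lower in CgA-KO/PS19. The 7 markers of choroid plexus summed to 132 CPM in WT replicate 5 and 12.8 to 15.0 CPM in the other WT libraries, against 4.08 to 6.51 CPM in PS19 and 6.58 to 10.6 CPM in CgA-KO/PS19, and 5 of 7 were higher in WT and 1 of 7 in CgA-KO/PS19. Apart from a striatum marker score fitted as a covariate below, the part of these markers in the receptor results was not tested. The Y-linked gene Ddx3y was at 49.8 to 76.8 CPM in all libraries numbered 1 to 3 and at 0 to 0.0582 CPM in all numbered 4 to 6, and the labels do not give the sex of each library. PS19 replicates 4 to 6 were the most alike libraries, with a robust SD (scaled median absolute deviation) of the log2 ratio between them of 0.0523 to 0.0607 over 3761 well-covered genes, and CgA-KO/PS19 replicates 1 and 3 followed at 0.0980. In bulk RNA, fewer cells of a type and less RNA per cell cannot be told apart, and the p-values measure only the spread between these libraries.

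Compared per kilobase of exon, Adra1d led the family in PS19, and Adrb1 led it in WT and CgA-KO/PS19. Adra1d encodes the alpha1D receptor, and Adrb1 the beta1 receptor, which raises cyclic AMP in cortical neurons. In PS19 the order was Adra1d at 21.2 ± 1.24 CPM per kb (SD, n = 6), Adrb1 at 16.1 ± 2.06, Adra1b at 7.91 ± 1.25, Adra2c at 4.89 ± 0.820, Adra2a at 2.32 ± 0.617, Adra1a at 2.05 ± 0.316, Adrb3 at 0.349 ± 0.0677 and Adra2b at 0.0356 ± 0.0139. Only Adra2a and Adra1a overlapped among neighbours in that order. In WT the order was Adrb1 at 10.3 ± 1.55 CPM per kb (SD, n = 5), Adra1d at 7.48 ± 3.79, Adra2c at 6.38 ± 1.82, Adra2a at 5.42 ± 1.94 and Adra1b at 4.33 ± 1.34, and each of these 5 overlapped its neighbour. Adra1a at 1.56 ± 0.314, Adrb3 at 0.364 ± 0.0878 and Adra2b at 0.227 ± 0.121 CPM per kb came last in WT. In CgA-KO/PS19 the 5 leading genes were Adrb1 at 12.6 ± 6.08 CPM per kb (SD, n = 6), Adra1d at 8.09 ± 5.27, Adra2c at 5.58 ± 2.38, Adra1b at 3.70 ± 1.12 and Adra2a at 3.29 ± 0.561, again with overlap between neighbours. Adrb3, the beta3 receptor gene best known from fat cells, and Adra2b stayed at the bottom in all 3 genotypes. Exon length is that of all annotated exons of a gene together, so genes with long alternative exons, such as Adra1a with 8728 bases, get lower values.

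The alpha1 genes made up more of the family in PS19 than in either other genotype, and the alpha2 genes less. The share of the alpha1 genes in the summed level per kb was 52.0% to 61.3% in the 6 PS19 libraries (median 55.9%), against 42.8%, 44.0%, 37.3%, 33.9% and 23.8% in WT replicates 1 to 5 and 28.7% to 44.3% in the 6 CgA-KO/PS19 libraries (median 36.7%). The share of the alpha2 genes was 12.4% to 13.9% in PS19 (median 13.1%), 25.2%, 29.0%, 34.8%, 30.8% and 49.0% in WT and 16.4% to 44.8% in CgA-KO/PS19 (median 22.3%). PS19 thus did not overlap with WT or CgA-KO/PS19 in either share. The beta genes held 29.9% ± 3.63 in WT (SD, n = 5), 29.9% ± 3.21 in PS19 (SD, n = 6) and 35.5% ± 9.51 in CgA-KO/PS19 (SD, n = 6), with overlap between all genotypes. By gene, Adra1d alone held 38.7% ± 1.02 of the family in PS19, 19.8% ± 7.09 in WT and 21.3% ± 7.18 in CgA-KO/PS19. Adra2a held 4.27% ± 1.28, 15.3% ± 5.73 and 9.72% ± 1.91 in the same order. The summed level of the family was 50.8 to 57.1 CPM per kb in PS19, 25.8 to 44.1 in WT and 26.5 to 54.3 in CgA-KO/PS19.

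The alpha1 to alpha2 ratio separated PS19 from both other genotypes in every library. It was 1.70, 1.52, 1.07, 1.10 and 0.485 in WT replicates 1 to 5. In PS19 replicates 1 to 6 it was 3.76, 4.94, 4.66, 4.31, 4.26 and 3.99. In CgA-KO/PS19 replicates 1 to 6 it was 0.728, 1.61, 0.641, 2.7001, 2.32 and 1.68, so that replicates 4 to 6 lay between the other CgA-KO/PS19 libraries and PS19. The mean log2 ratio was 1.99 lower in WT than in PS19, which is 3.98-fold, and 1.61 lower in CgA-KO/PS19, which is 3.05-fold. CgA-KO/PS19 and WT overlapped, with a mean log2 ratio 0.39 higher in CgA-KO/PS19. No p is given for the ratio or the shares, because the genes were chosen with results of these data known. The ratio of PS19 also stayed above that of every WT and CgA-KO/PS19 library when each alpha gene in turn was left out of the sums, a check added after seeing the data. Without Adra1d the ratio was 1.08 to 1.71 in PS19, 0.233 to 0.705 in WT and 0.323 to 0.871 in CgA-KO/PS19. Against PS19, the log2 ratio of CgA-KO/PS19 was 2.28 lower in replicates 1 to 3 and 0.93 lower in replicates 4 to 6, also chosen after seeing the data.

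**Figure D1:**
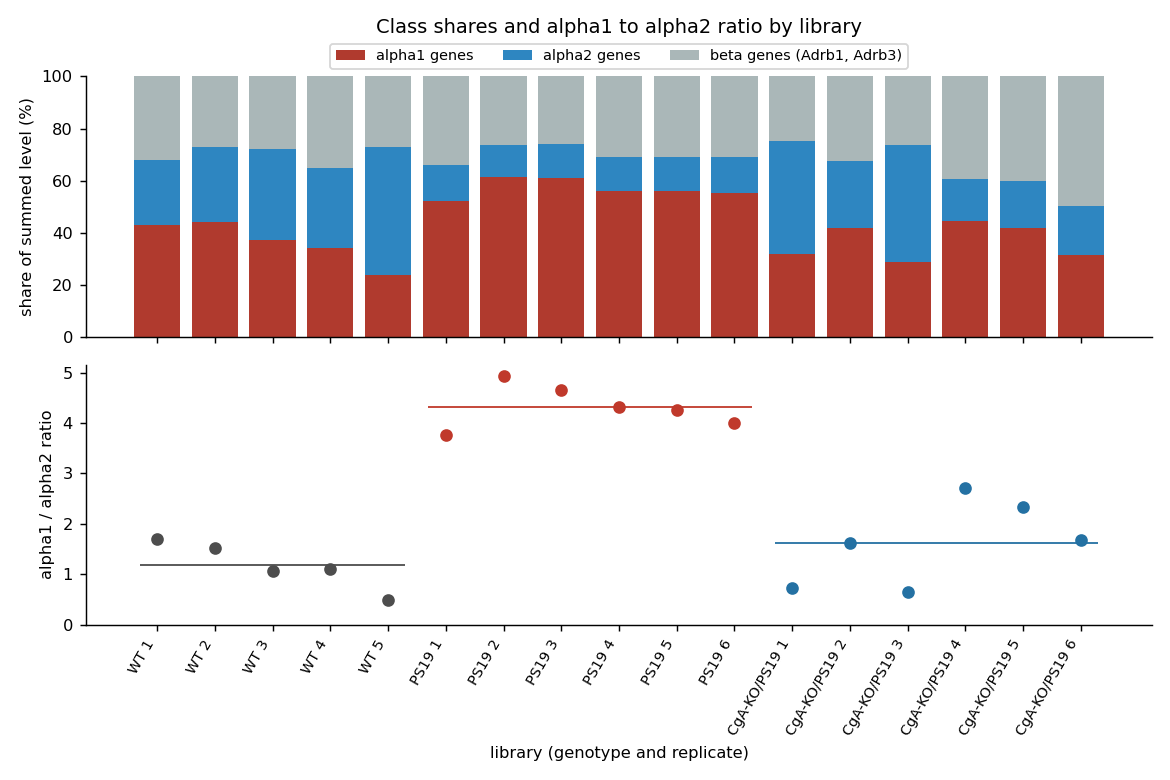
Upper panel, share of the alpha1, alpha2 and beta genes in the summed level per kb of the family (%) in each library, and lower panel, the alpha1 to alpha2 ratio with each genotype's mean as a line. All 6 PS19 libraries had a ratio of at least 3.76, and the other 11 libraries had 2.7001 or less.

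Adra1b, the gene of the alpha1B receptor, was lower in WT and in CgA-KO/PS19 than in PS19. It was 18.8, 19.8, 12.7, 12.9 and 9.08 CPM in WT replicates 1 to 5. It was 20.9 to 33.2 CPM (median 26.1) in the 6 PS19 libraries and 9.40 to 17.4 CPM (median 10.5) in the 6 CgA-KO/PS19 libraries. Neither WT nor CgA-KO/PS19 overlapped with PS19. Against PS19 the log2 fold change of WT was -0.87 (standard error 0.22, adjusted p = 0.0223) and that of CgA-KO/PS19 -1.10 (adjusted p = 0.00514, standard error 0.20). These and the following adjusted p-values come from the quasi-likelihood test of edgeR, adjusted by Benjamini-Hochberg over 23062 genes. With the striatum marker score as a covariate, the log2 fold change was -0.29 in WT (adjusted p = 0.518) and -0.86 in CgA-KO/PS19 (adjusted p = 0.0223). With the most alike libraries summed to 1 sample each, the adjusted p was 0.0850 for WT and 0.0625 for CgA-KO/PS19, and the replicate block gave 0.0656 and 0.0282. Leaving out replicate 3 or 5 of WT or replicate 2 of PS19 also ended the call in WT (adjusted p = 0.0535, 0.0727 and 0.0554).

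Adra1d, which led the family in PS19 per kilobase of exon, was also lower in WT and in CgA-KO/PS19. Among the alpha1 genes it varied most within WT and CgA-KO/PS19, with a coefficient of variation of 50.6% and 65.2%, and least within PS19, with 5.86%. It was 19.0, 23.1, 14.7, 6.16 and 7.98 CPM in WT replicates 1 to 5, all below the 37.3 to 42.3 CPM (median 41.3) of the 6 PS19 libraries. In CgA-KO/PS19 it was 7.20, 12.7 and 7.66 CPM in replicates 1 to 3 and 32.6, 21.9 and 10.0 CPM in replicates 4 to 6. CgA-KO/PS19 therefore ran from the low values of WT to near PS19, without overlap with PS19. The log2 fold changes were -1.49 for WT (standard error 0.38, adjusted p = 0.0263) and -1.39 for CgA-KO/PS19 (standard error 0.36, adjusted p = 0.0229). With the striatum covariate it was -0.26 in WT (adjusted p = 0.759) and -1.01 in CgA-KO/PS19 (adjusted p = 0.0673). The replicate block (adjusted p = 0.0871 and 0.0641) and the summed libraries (adjusted p = 0.0858 and 0.150) also ended both calls. Leaving out WT replicate 4 or 5 ended the call in WT (adjusted p = 0.0563 and 0.0865), and leaving out CgA-KO/PS19 replicate 1 or 2 ended that in CgA-KO/PS19 (adjusted p = 0.0516 and 0.0567).

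Adra1a, the gene of the alpha1A receptor, differed less between the genotypes than the other alpha1 genes. It was 13.2, 11.8, 17.5, 14.9 and 10.6 CPM in WT replicates 1 to 5, 15.2 to 22.8 CPM (median 17.4) in PS19 and 11.5 to 15.9 CPM (median 14.1) in CgA-KO/PS19. Both genotypes overlapped with PS19. Neither its log2 fold change of -0.40 in WT (adjusted p = 0.0972, standard error 0.14) nor that of -0.36 in CgA-KO/PS19 (adjusted p = 0.0801, standard error 0.13) passed the test. The difference in WT did pass with limma voom (-0.40, adjusted p = 0.0437) and without WT replicate 3 (-0.51, adjusted p = 0.0353).

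Adra2a, the gene of the alpha2A receptor, the main alpha2 receptor of cortex, was higher in WT than in PS19. It was 22.6, 28.3, 19.8, 18.7 and 41.5 CPM in WT replicates 1 to 5, and 16.6, 11.1, 12.3, 8.51, 9.15 and 9.65 CPM in PS19 replicates 1 to 6. In CgA-KO/PS19 replicates 1 to 6 it was 14.6, 12.3, 17.1, 18.8, 18.8 and 13.9 CPM. Every WT library was above every PS19 library, while CgA-KO/PS19 overlapped with both. Against PS19 its log2 fold changes were 1.23 for WT (standard error 0.21, adjusted p = 0.00198) and 0.51 for CgA-KO/PS19 (standard error 0.20, adjusted p = 0.109). The latter passed with limma voom (0.64, adjusted p = 0.0293) and without PS19 replicate 1 (0.65, adjusted p = 0.0489). CgA-KO/PS19 was lower than WT (log2 scale, -0.72, standard error 0.21, adjusted p = 0.0454). Adra2a was the only member called in WT with the striatum covariate (log2 fold change 1.15, adjusted p = 0.0277), the replicate block (adjusted p = 0.0193) and the summed libraries (adjusted p = 0.0328). The call against WT was lost in 17 of 30 other fits, among them leaving out WT replicate 5, where the log2 fold change was -0.49 (adjusted p = 0.169).

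Adra2b, the gene of the alpha2B receptor, was the lowest member and rested on few counts. Its counts were 22, 23, 196, 8 and 171 in WT replicates 1 to 5 and 5 to 38 in the 6 PS19 libraries. In CgA-KO/PS19 replicates 1 to 6 they were 73, 14, 216, 28, 0 and 3. These gave 0.636, 0.354, 1.001, 0.912 and 1.65 CPM in WT, 0.0719 to 0.206 CPM in PS19 (median 0.143) and 1.302, 0.279, 1.19, 0.249, 0 and 0.0866 CPM in CgA-KO/PS19. A count of 0 allows up to 3 fragments, or 9 counts, a limit on counting error only. The limit is 0.161 CPM in CgA-KO/PS19 replicate 5 and 1.02 CPM in WT replicate 4, whose values lie under it. PS19 replicate 1 (0.0911 CPM, limit 0.169 CPM) and CgA-KO/PS19 replicate 6 (0.0866 CPM, limit 0.239 CPM) also lie under theirs. The log2 fold changes of Adra2b against PS19 were 2.66 for WT (standard error 0.73, adjusted p = 0.0394) and 1.87 for CgA-KO/PS19 (standard error 0.70, adjusted p = 0.0921), where the latter passed without CgA-KO/PS19 replicate 5 (2.13, adjusted p = 0.0252). Every WT library was above every PS19 library, and CgA-KO/PS19 was high in replicates 1 and 3 and near PS19 in the others. With the striatum covariate the log2 fold change was -0.31 in WT (adjusted p = 0.823) and -0.09 for CgA-KO/PS19 (adjusted p = 0.938). The call in WT was lost without any 1 of the 6 PS19 libraries or of WT replicates 3, 4 and 5 (adjusted p = 0.0540 to 0.136).

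Adra2c, the gene of the alpha2C receptor, which is abundant in striatum, did not pass the test in any comparison. It was 17.9, 23.5, 28.5, 13.3 and 26.6 CPM in WT replicates 1 to 5 and 13.4 to 19.6 CPM (median 17.3) in PS19. In CgA-KO/PS19 it was 28.2, 15.4 and 30.5 CPM in replicates 1 to 3 and 16.998, 14.0 and 10.2 CPM in replicates 4 to 6. All 3 genotypes overlapped. Compared with PS19, the log2 fold change of WT was 0.39 (adjusted p = 0.397) and that of CgA-KO/PS19 0.19 (adjusted p = 0.638).

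Adrb1 was lower in every WT library than in any PS19 library but did not pass the test. It was 41.6, 38.8, 33.2, 29.7 and 30.4 CPM in WT replicates 1 to 5 and 43.0 to 59.8 CPM (median 58.1) in PS19. The difference was -0.64 on the log2 scale (adjusted p = 0.155, standard error 0.26). With only the 2 genotypes in the fit, the adjusted p was 0.00630, and limma voom gave 0.0216, while with the striatum covariate the log2 fold change was 0.45 (adjusted p = 0.225). In CgA-KO/PS19 it was 21.3, 28.8 and 24.5 CPM in replicates 1 to 3 and 70.7, 58.6 and 52.2 CPM in replicates 4 to 6, the former below every PS19 library and the latter within or above their range. The log2 fold change over all 6 was -0.35 by edgeR (adjusted p = 0.363) and -0.68 by limma voom (adjusted p = 0.0234), so that the tools differed in the call and in the size. Adrb3 was 0.950 to 1.65 CPM in WT, 0.895 to 1.44 CPM in PS19 and 0.722 to 1.55 CPM in CgA-KO/PS19, and its log2 fold changes against PS19 were 0.06 and -0.05 (adjusted p = 0.924 and 0.913).

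**Figure D2:**
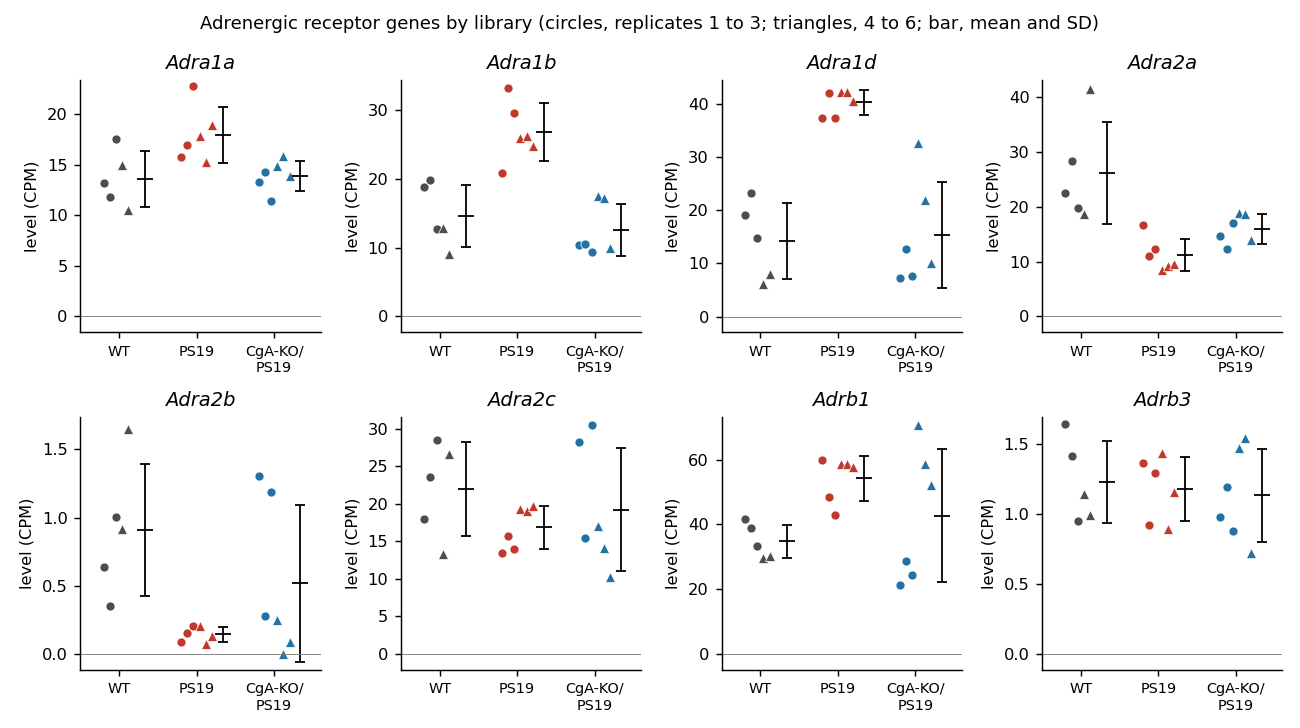
Level of each gene (CPM) in every library by genotype, with circles for replicates 1 to 3, triangles for replicates 4 to 6 and a bar for the mean and SD. Adra1b and Adra1d in PS19 lie above all other libraries, and Adrb1 in CgA-KO/PS19 falls into 21.3 to 28.8 CPM for the circles and 52.2 to 70.7 CPM for the triangles.

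Across the family, 2 of 8 genes (Adra2a and Adra2b) were called higher and 2 of 8 (Adra1b and Adra1d) lower in WT than in PS19 at an adjusted p under 0.05, where 3.95% and 1.95% of the 23062 genes tested were. Without WT replicate 5, the library with the most choroid plexus RNA, 1 of these 4 calls (Adra2a) was left. In CgA-KO/PS19 against PS19, 0 of 8 were called higher and 2 of 8 (Adra1b and Adra1d) lower by edgeR, where 5.50% and 4.22% of genes were. Higher at an unadjusted p under 0.05 were 2 of the 8 (Adra2a and Adra2b), of which DESeq2 called Adra2b and limma voom Adra2a. Against WT, edgeR called 0 of 8 higher, also at an unadjusted p under 0.05, and 1 of 8 (Adra2a) lower in CgA-KO/PS19, where 3.56% and 2.89% of genes were, and DESeq2 and limma voom also called Adra2a alone. At an unadjusted p under 0.01 together with an absolute log2 fold change over 0.5, the same genes were called in both comparisons with PS19, where 4.57% of genes were higher and 2.81% lower in WT and 6.30% higher and 3.44% lower in CgA-KO/PS19. Libraries did not overlap with PS19 for 2 genes higher in WT (4.39% of all genes), for 3 genes lower in WT (5.13%), for 0 genes higher in CgA-KO/PS19 (2.84%) and for 2 genes lower in CgA-KO/PS19 (3.79%). Between CgA-KO/PS19 and WT, 0 genes did not overlap in either direction, where 2.06% and 1.54% of genes were higher or lower without overlap. The median log2 fold change of the 8 genes was -0.17 in WT and -0.20 in CgA-KO/PS19 against PS19, beside -0.01 and 0.03 over all genes tested. Both comparisons use the same PS19 libraries, so their values are not independent.

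**Figure D3:**
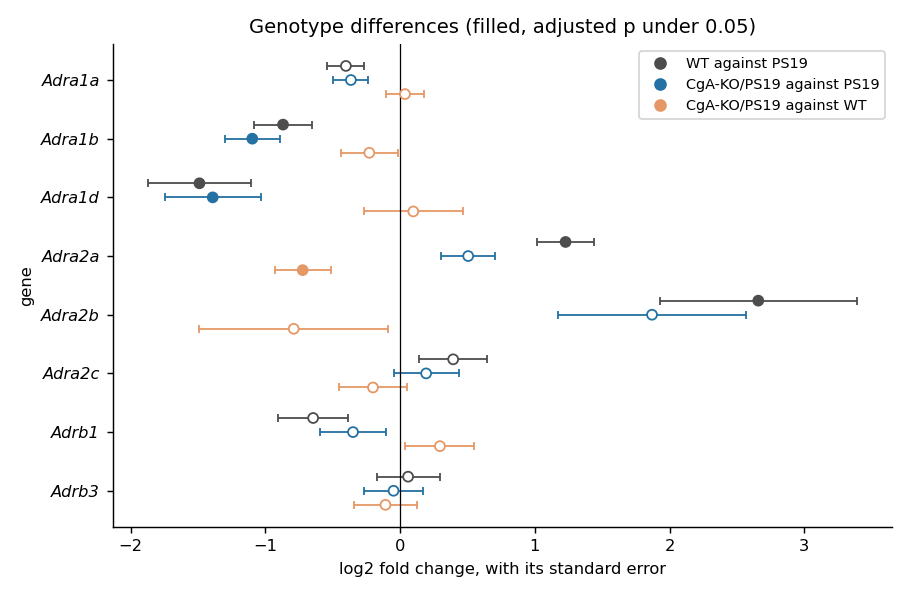
Log2 fold change of each gene with its standard error in the 3 comparisons, filled where the adjusted p was under 0.05. Adra1b and Adra1d lie below 0 and Adra2a and Adra2b above 0 in both comparisons with PS19, while Adrb3 lies near 0 in all 3.

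The difference between CgA-KO/PS19 and PS19 was not the same in replicates 1 to 3 and in replicates 4 to 6. These sets also differed in Ddx3y and, within CgA-KO/PS19, in striatum markers and other genes. There, oligodendrocyte markers summed to 2252 to 2497 CPM in replicates 1 to 3 and 1342 to 1478 CPM in replicates 4 to 6. In the same order, interneuron markers summed to 742 to 773 and 1113 to 1149 CPM, and Prnp was 1236 to 1348 and 1676 to 2079 CPM. The part of these genes in the difference between the replicate sets was not tested. An interaction term in the edgeR fit, added after seeing the data, passed for Adrb1 (difference of the log2 fold changes -1.07, standard error 0.21, adjusted p = 0.00524) and for Adra2c (1.27, standard error 0.39, adjusted p = 0.0478). Over all genes tested, 4.97% passed above 0 and 6.68% below 0. The values of each set that follow come from a fit of that set alone, so their difference is not exactly the interaction. Adrb1 was 1.01 lower on the log2 scale in CgA-KO/PS19 than in PS19 within replicates 1 to 3 and 0.04 higher within replicates 4 to 6. Adra2c was 0.80 higher within replicates 1 to 3 and 0.51 lower within replicates 4 to 6. For Adra2b the log2 fold changes were 2.58 and -0.11, but the interaction did not pass (adjusted p = 0.136), and for Adra1d they were -2.07 and -0.97 (adjusted p = 0.115). Adra1b, at -1.45 and -0.80, had an interaction with an adjusted p of 0.189, and Adra2a, at 0.16 and 0.90, one of 0.169. In WT against PS19, 0 of 8 genes had an interaction that passed, 3 (Adra1d, Adra2a and Adrb1) had an unadjusted p under 0.05, and 0.0390% and 0.0173% of all genes passed above and below 0. PS19 replicates 4 to 6 are the most alike libraries, so the spread in that set may be too small. The split by Ddx3y, and with it a difference of sex, cannot be told apart from the replicate set.

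The receptor genes were set beside a striatum marker score, the mean of the 16 markers on the log2 scale around their means. The score was 0.74 to 2.67 in WT, -1.43 to -1.30 in PS19, 2.02, -0.13 and 2.03 in CgA-KO/PS19 replicates 1 to 3 and -1.34, -1.38 and -1.50 in replicates 4 to 6. CgA-KO/PS19 replicates 4 to 6 thus had scores within or below those of PS19. In these 3 libraries Adra1b (17.4, 17.3 and 9.93 CPM) and Adra1d (32.6, 21.9 and 10.0 CPM) were below every PS19 library, and Adra2a (18.8, 18.8 and 13.9 CPM) was above at least 5 of 6 PS19 libraries. Their alpha1 to alpha2 ratio of 1.68 to 2.7001 was below the lowest PS19 ratio of 3.76. Adra2b and Adra2c were at 0 to 0.249 CPM and 10.2 to 16.998 CPM there, and at 1.19 to 1.302 CPM and 28.2 to 30.5 CPM in replicates 1 and 3, where the striatum markers were high. With the score as a covariate, 1 of 8 genes was called in WT (Adra2a, higher), where 10.4% of all genes were higher and 7.18% lower, and 1 of 8 in CgA-KO/PS19 (Adra1b, lower), where 4.14% of all genes were higher and 2.89% lower. Mitochondrial genes took 13.8% to 18.2% of counts in CgA-KO/PS19 replicates 1 to 3, 3.84% to 10.9% in replicates 4 to 6 and 2.56% to 7.94% in the WT and PS19 libraries, and their part in these results was not tested.

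**Figure D4:**
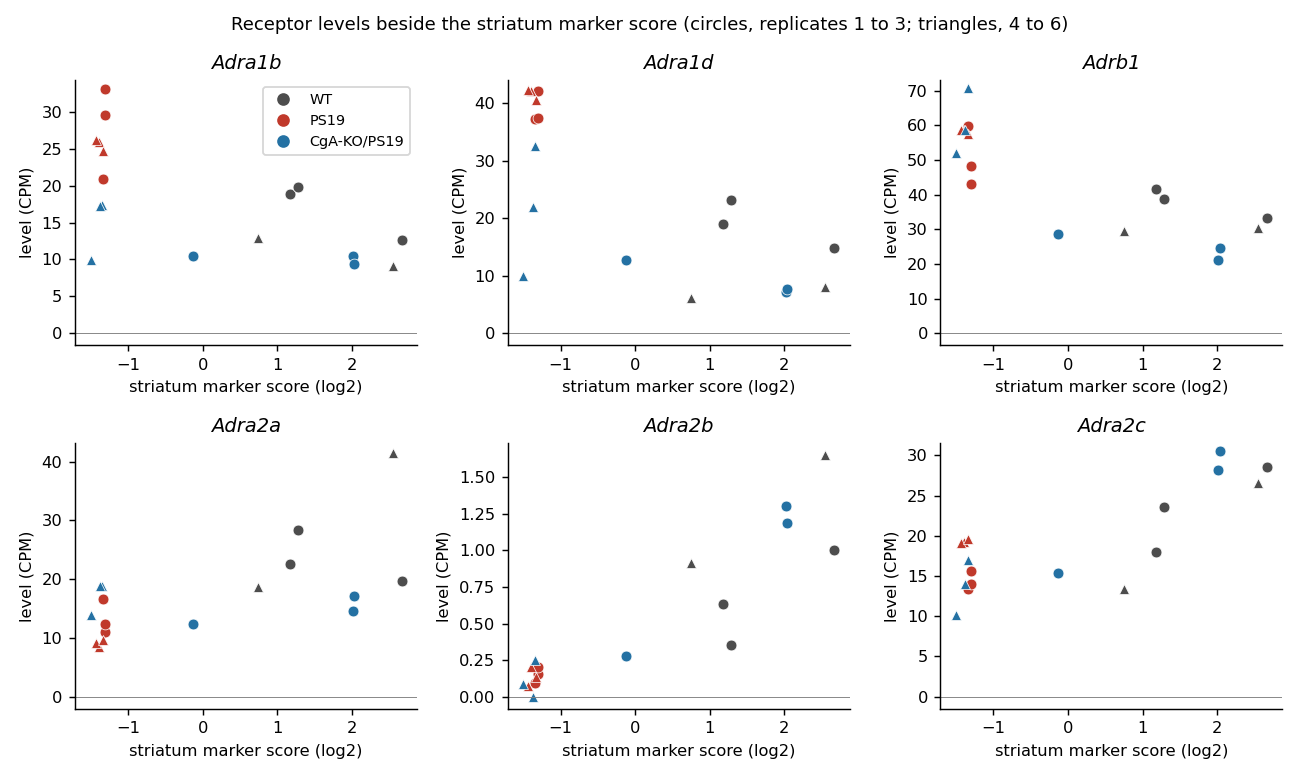
Level (CPM) of 6 receptor genes against the striatum marker score of each library, coloured by genotype, with circles for replicates 1 to 3 and triangles for replicates 4 to 6. All PS19 libraries lie at a score of -1.30 or less, together with CgA-KO/PS19 replicates 4 to 6.

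Within genotypes, Adra1b and Adra1d varied together across the libraries. Of the 28 pairs of receptor genes, 3 had a Pearson correlation with an adjusted p under 0.05 after the genotype means were removed from log2(CPM + 0.5), by a permutation test within genotypes over 17 libraries. For Adra1b and Adra1d, r was 0.81 (permutation p = 0.00285, adjusted p = 0.0459) and Spearman's rho 0.81 (permutation p = 0.00211, adjusted p = 0.0295), and without the 2 libraries farthest out on Adra1b r was 0.73. For Adra1d and Adrb1, r was 0.76 (permutation p = 0.00346, adjusted p = 0.0459) and rho 0.71 (permutation p = 0.0110, adjusted p = 0.103), and r was 0.69 without the 2 farthest libraries. Adra2b and Adrb1 varied in opposite directions, with r = -0.79 (permutation p = 0.00492, adjusted p = 0.0459) and rho = -0.81 (permutation p = 0.000360, adjusted p = 0.0101), and r was -0.60 without the 2 farthest libraries. Within PS19 alone, 0 of the 28 pairs passed and 2 had an exact permutation p under 0.05, and r of Adra1b with Adra1d was 0.39 (exact permutation p = 0.482). Within CgA-KO/PS19 alone, 0 of 28 passed and 7 had an exact permutation p under 0.05, with r = 0.93 for Adra1b and Adra1d (exact permutation p = 0.0167, adjusted 0.167). The smallest exact p that 6 libraries allow is 0.00139. In CgA-KO/PS19 the levels of Adrb1 fell into separate clusters, replicates 1 to 3 and 4 to 6, each too small to test a relation within it. With the most alike libraries averaged, 0 of 28 pairs passed by Pearson's r, and without WT replicate 4 only Adra1b with Adra1d did (r = 0.86, adjusted permutation p = 0.0126). By Spearman's rho, Adra1b with Adra1d (0.82) and Adra2b with Adrb1 (-0.78) passed with the libraries averaged (adjusted permutation p = 0.0382 for each). Both also passed by rho without WT replicate 4 (0.92 and -0.78, adjusted permutation p = 0.0140 for each). With the striatum score as a covariate, 1 of the 3 pairs first named passed by r, Adra1b with Adra1d (r = 0.74, adjusted permutation p = 0.0469). Adra2b with Adrb1 then had r = -0.24 (adjusted permutation p = 0.781) and Adra1d with Adrb1 r = 0.67 (adjusted permutation p = 0.126). In that setting Adra1d with Adra2c (r = 0.71, adjusted permutation p = 0.00280) and Adra2c with Adrb1 (r = 0.68, adjusted permutation p = 0.0469) passed by r instead. By rho, Adra2c with Adrb1 did not pass there (adjusted permutation p = 0.319). Over the 17 libraries, with only the genotype means removed, Adra2a had no correlation beyond 0.41 in size with any other member. Within PS19 alone, the 2 pairs with an exact permutation p under 0.05 both held Adra2a. They were Adra2a with Adra2c (r = -0.92, exact permutation p = 0.00694, adjusted 0.194) and with Adra1d (r = -0.84, exact permutation p = 0.0194, adjusted 0.272).

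**Figure D5:**
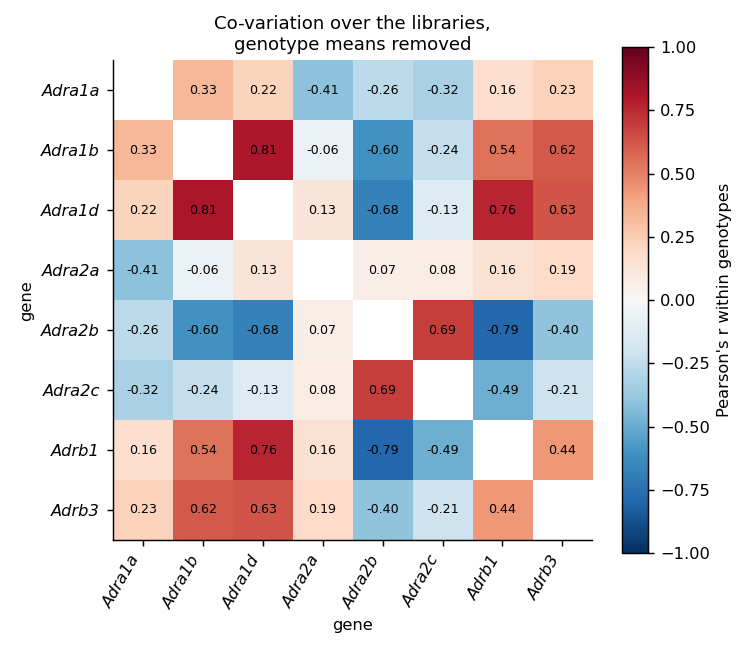
Pearson's r between each pair of receptor genes over the 17 libraries after the genotype means were removed. Adra1b, Adra1d, Adrb1 and Adrb3 had r of 0.44 to 0.81 with each other, and each had a negative r with Adra2b.

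The genes whose pattern within genotypes was most like that of each member were sought among 15474 genes with a mean of at least 1 CPM, as a description without a test. Nearest to Adra1d were Kcnk3, a background potassium channel (r = 0.98 over 17 libraries), and Anxa11 (r = 0.95). Nearest to Adra1b were Esyt1 (r = 0.91) and Vamp1, a synaptic vesicle protein (r = 0.90). Vamp1 was also lower than in PS19 in both genotypes, with log2 fold changes of -1.09 for WT (adjusted p = 0.00187) and -0.85 for CgA-KO/PS19 (adjusted p = 0.00771), as were Esyt1 (-0.73 and -0.62, adjusted p = 0.0164 and 0.0251) and Kcnk3 (-0.77 and -0.76, adjusted p = 0.0271 and 0.0201). Nearest to Adrb1 were Btg2 (r = 0.98) and Ier2 (r = 0.97), both immediate early genes, which neurons switch on within minutes of stimulation. For Adra1a they were Lama4 (r = 0.81) and Fam171b (r = 0.75), for Adra2a Mtss1 (r = 0.87) and Sh3bp4 (r = 0.86), and for Adrb3 Cant1 (r = 0.84) and Coro2a (r = 0.83). For Adra2c they were H2bc8 (r = 0.97), a histone gene with near-identical copies whose counts are uncertain, and Trnp1 (r = 0.97). These points share libraries, depth and the striatum markers above. Adra2b was below the level limit of this search.

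Genes downstream of the receptors and of catecholamine supply were taken from lists of known pathway members. Their counts are to be read against the 3.95% of all genes that were higher and 1.95% lower in WT, and the 5.50% higher and 4.22% lower in CgA-KO/PS19. Of the 13 genes of the Gq, phospholipase C and protein kinase C list, through which alpha1 receptors act, 1 was lower in WT (Itpr3) and 2 were lower in CgA-KO/PS19 (Prkca and Itpr3). Itpr3, a calcium release channel, was lower than in PS19 in both. It was 3.71 ± 0.762 CPM in WT (SD, n = 5), 5.83 ± 0.795 in PS19 (SD, n = 6) and 3.91 ± 0.846 in CgA-KO/PS19 (SD, n = 6). Its log2 fold changes were -0.65 and -0.57 (adjusted p = 0.0334 and 0.0346). Of the 5 Gi and Go genes, through which alpha2 receptors act, 0 were called by edgeR in either comparison, where 0 in WT and 2 in CgA-KO/PS19 had an unadjusted p under 0.05, and DESeq2 called 1 in CgA-KO/PS19 and limma voom 0. Of the 17 genes of the Gs, adenylate cyclase and protein kinase A list, 1 was higher (Gnal, a G protein subunit known from striatum) and 2 lower (Adcy1 and Adcy2) in WT, and 1 was higher (Prkar2b) and 3 lower (Prkar1b, Adcy2 and Adcy9) in CgA-KO/PS19. The level of Adcy2, an adenylate cyclase, was 155 ± 24.1 CPM in WT (SD, n = 5), 212 ± 16.7 in PS19 (SD, n = 6) and 165 ± 22.6 in CgA-KO/PS19 (SD, n = 6). Its log2 fold changes were -0.45 and -0.36 (adjusted p = 0.0293 and 0.0479). Of 9 genes of receptor desensitization, 1 was higher in WT (Rgs2) and 0 were called in CgA-KO/PS19 by edgeR, where 2 had an unadjusted p under 0.05, and DESeq2 called 0 and limma voom 1. Of the 9 tested genes of catecholamine synthesis, transport and breakdown, 1 was higher in WT (Slc22a3, a transporter that takes up catecholamines) and 0 were called in CgA-KO/PS19 by edgeR, where 1 had an unadjusted p under 0.05, and DESeq2 called 1 and limma voom 2. The medians of these 5 lists lay between -0.14 and 0.58 in WT and between -0.22 and 0.21 in CgA-KO/PS19 on the log2 scale. The 6 markers of noradrenergic neurons, whose cell bodies lie in the brainstem, summed to 4.37 to 21.7 CPM in WT, 1.21 to 8.19 CPM in PS19 and 5.59 to 9.85 CPM in CgA-KO/PS19, with 1 of them at 0 throughout WT and 1 throughout PS19.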

How the data were processed

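Whole-number counts per gene were deposited by the authors for 17 libraries. Per the submitters' processing notes and the Methods, reads were trimmed with Trimmomatic 0.39, aligned to mm10 with STAR 2.7.10b, quantified with StringTie 1.3.6 and turned into counts with prepDE. Annotation release and strand setting are not given in the sources used here. Since low counts peak at 3 and 6, low counts look more precise than the fragments behind them allow. Libraries were grouped by labelled genotype. Counts were tested with edgeR 4.0.16 in R 4.3.3 (TMM, filterByExpr, quasi-likelihood, 1 mean per genotype, all 17 libraries, common biological coefficient of variation 0.316, 23062 genes). Fold changes use edgeR's default prior count. CPM was divided by exon length from GENCODE M21, matched by identifier without version, as was true of 52029 of 56953 genes. Correlations used log2(CPM + 0.5) and 100000 permutations within genotype.

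The members and gene lists were chosen with earlier results of these data known. Besides the members, the text names Chga, Prnp, the 2 genes most correlated with each member, and list genes called against PS19 in the same direction in both genotypes. Other list genes were named after their values were seen because their counts were small. Alternatives were DESeq2 1.42.0, limma 3.58.1 voom with sample quality weights, other filters and scalings, covariates, summed libraries and each library left out. The code was tested on simulated data. Deviations of same-numbered libraries had Pearson's r of -0.23 to 0.45 across genes, the highest between replicate 3 of WT and of CgA-KO/PS19. Replicate numbers were not taken as a pairing in the main fit, although a low r cannot exclude a pairing. Some related genes are not reported here.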

Additional observations from a re-analysis of the deposited data

Results flagged for a closer look

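The difference between CgA-KO/PS19 and PS19 differed between replicates 1 to 3 and replicates 4 to 6 for 2 of the 8 receptor genes. This was by an interaction term tested with edgeR and adjusted over all genes. The same term passed above 0 for 4.97% and below 0 for 6.68% of the 23062 genes tested, so it was not particular to the receptors. For Adrb1 the log2 fold change was 1.07 units lower in replicates 1 to 3 (interaction -1.07, adjusted p = 0.00524). CgA-KO/PS19 replicates 1 to 3 were at 21.3 to 28.8 CPM and replicates 4 to 6 at 52.2 to 70.7 CPM. For Adra2c the log2 fold change was 1.27 higher in replicates 1 to 3 (adjusted p = 0.0478), where CgA-KO/PS19 replicates 1 and 3 were at 28.2 and 30.5 CPM and the other 4 at 10.2 to 16.998 CPM. The test was added after these values had been seen. Among 27 groups of libraries checked (the 8 genes and the log2 ratio of alpha1 to alpha2 in 3 genotypes), 0 held a library far from the others.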

How the results depend on the processing

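The call of Adra2a as higher in WT than in PS19 held in 29 of 30 other fits and that of Adra1b as lower in CgA-KO/PS19 than in PS19 in 28 of 30. Of the 8 genes, 4 were called in WT against PS19, 2 in CgA-KO/PS19 against PS19 and 1 in CgA-KO/PS19 against WT. In that order these counts were 1, 0 and 0 with the most alike libraries summed and 1, 1 and 0 with the striatum covariate, which turned Adra2b in WT to -0.31 on the log2 scale. With limma voom they were 6, 4 and 1. Against WT, 0 were called with no filter on low counts or with only the 2 genotypes in the fit. Leaving out 1 library gave 1 to 4, 1 to 3 and 0 to 1 called receptor genes. Over all genes it gave 632 to 1658, 1019 to 3822 and 627 to 2099. Over all genes the counts were 1361, 2242 and 1489, against 2396, 3958 and 2564 with DESeq2, 3967, 5229 and 2458 with limma voom, 430, 159 and 571 with the most alike libraries summed and 4063, 1621 and 5066 with the striatum covariate.

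The following fits were chosen after seeing the data. With replicates 1 to 3 only, 0, 5 and 4 genes were called, and against WT Adra1d was at -1.04 (edgeR adjusted p = 0.0147) and Adrb1 at -0.60 (edgeR adjusted p = 0.0279) in CgA-KO/PS19, both turned from above 0. With replicates 4 to 6 only, 4, 0 and 1 were called. The mean log2 ratio of alpha1 to alpha2 differed by -2.28 (CgA-KO/PS19 less PS19) and -0.63 (CgA-KO/PS19 less WT) in replicates 1 to 3, and by -0.93 and 1.59 in replicates 4 to 6, where WT less PS19 was -2.52. WT less PS19 was -1.47 without Adra1d and -2.54 without Adra2c in the sums. The causes of these differences were not tested.

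Leaving out 1 library moved the difference in log2 ratio from -2.16 to -1.70 for WT less PS19, from -1.79 to -1.38 for CgA-KO/PS19 less PS19 and from 0.10 to 0.61 for CgA-KO/PS19 less WT. Of the 3 pairs correlated by Pearson's r, 1 was left by r without the shallowest library, 1 (Adra1b with Adra1d) with the striatum covariate and 0 with the most alike libraries averaged. By Spearman's rho, Adra1b with Adra1d and Adra2b with Adrb1 passed without the shallowest library and with the most alike libraries averaged. With the replicate block, 1 gene (Adra2a) was called in WT against PS19, 1 (Adra1b) in CgA-KO/PS19 against PS19 and 0 in CgA-KO/PS19 against WT, and 660, 654 and 614 of all genes, although the numbers were not found to pair the libraries. The fold change of Adra2b was not tested where at least 10 counts were asked of every library. Adra2b and WT replicate 4 are where depth limits most.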
